A study of Mus musculus with 12 samples.

Results

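The 10 genes described here encode the transcription factors Snai1 (Snail), Snai2 (Slug), Twist1, Twist2, Zeb1 and Zeb2, the cadherins Cdh1 (E-cadherin), Cdh2 (N-cadherin) and Cdh11 (OB-cadherin), and the intermediate filament protein vimentin (Vim). Every probeset annotated to exactly 1 of these symbols was kept, whatever its level, which gave 19 of the 45037 probesets and 10 of the 17097 genes with a symbol of their own. All cells were mesenchymal stem/stromal cells (MSCs) from the bone marrow of mice that carry Mapk14 lox/lox, a floxed gene for the kinase p38α. The labels give the strain as FVB/NJ, whereas the study's methods name another background for the mice it used. They were immortalized by the 3T3 protocol, so that the cells are a cultured line and not MSCs fresh from marrow. p38α∆ MSCs (arrays titled KO) had received 4-hydroxytamoxifen for 2 days to delete Mapk14, and WT MSCs (arrays titled CTRO) vehicle, so exposure to 4-hydroxytamoxifen and loss of p38α cannot be told apart. All were kept in 0.5% serum, with 5 ng/ml of TGF-β or without it for 20 h. There were 3 arrays of p38α∆ MSCs with TGF-β, 3 of WT MSCs with TGF-β, 2 of untreated p38α∆ MSCs and 4 of untreated WT MSCs. The titles also number the arrays from 1 to 4, with a second WT array called 4b. The values are log2 RMA values, 1 unit being a doubling of signal, and differences are taken between groups for the same probeset only. The rank of a probeset's signal among all probesets is given to show whether it lay near the floor of the platform, and does not compare amounts of different transcripts. No source says that the arrays came from separate cultures or animals, so the p-values measure the spread between these arrays, which may be technical.

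Snail, Twist and Zeb factors are best known for the epithelial-to-mesenchymal transition, in which epithelial cells give up their junctions. Snail and Zeb proteins bind E-box sequences in the promoter of Cdh1 and repress it, whereas Twist proteins are basic helix-loop-helix factors that bind E-boxes as dimers with E proteins. Cells that complete the transition carry Cdh2 or Cdh11 in place of Cdh1 and fill their cytoplasm with vimentin. TGF-β is a classical inducer of these factors in epithelial cells through Smad proteins. MSCs are already mesenchymal, and in such cells the same factors are part of the resting state: Twist1 and Twist2 hold back osteoblast differentiation, and Snai2 has a role in the mesenchymal lineage as well as in migration. An endothelial-to-mesenchymal transition driven by TGF-β uses the same factors, and the study asked how p38α and TGF-β bear on an endothelial phenotype of MSCs.

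The signal of the Vim probesets lay at percentiles 99.1 to 99.5 of the mean of all probesets, and that of the Cdh1 probeset (1448261_PM_at) at percentile 11.0. Of the MSC markers, Pdgfrb ran from 8.58 to 9.63 and Itgb1 from 8.77 to 9.54 over the 12 arrays. Thy1, another usual MSC marker, ran from 3.14 to 3.55. Cd44 ran from 7.61 to 8.71, Nt5e from 5.95 to 6.84 and Pdgfra from 5.09 to 6.34. Eng (CD105) ran from 4.32 to 4.98 and Mcam from 4.06 to 5.62, at percentiles 55.5 and 55.1 of all probesets. All 6 endothelial markers (Pecam1, Cdh5, Kdr, Tie1, Tek and Nos3) were below the median level of all probesets (4.25), as were 4 of 5 leukocyte markers. The summed log2 level of the endothelial markers was 21.4 to 23.1 in p38α∆ and 21.0 to 22.2 in WT MSCs with TGF-β, and 21.3 to 22.9 in p38α∆ and 21.3 to 22.5 in WT MSCs without it. No endothelial or leukocyte marker passed the test in any comparison. Mapk14 itself was not lower on the p38α∆ arrays: its 6 probesets differed from WT by -0.06 to 0.19 with TGF-β and by -0.18 to 0.02 without it, and none passed. The sources used here do not say where these probes lie relative to the floxed exon, and a probe outside it checks nothing. The 12 arrays separated first by number (1 against the others; principal component 1, 50.6% of the variance) and then by TGF-β (component 2, 23.9%).

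Promoter windows from RefSeq (build GRCm38.p6) were matched by symbol for 5 of the 10 members: Snai1, Twist1, Twist2, Zeb2 (4 starts) and Vim. Of each window, the 250 bases before the start were searched on both strands for the E-box that Snail and Zeb proteins bind (CAGGTG, or CACCTG on the other strand), for any E-box (CANNTG, which includes CAGGTG), for the Smad-bound CAGA box (CAGAC or GTCTG) and for the AP-1 site (TGANTCA). Among 32817 windows of this length, CAGGTG occurred in 17.2%, CANNTG in 66.2%, CAGAC in 42.2% and TGANTCA in 6.75%. Matches were found in 3 of the 8 windows of these 5 genes, and those 3 are printed because their genes carry the TGF-β responses below (Snai1 and Zeb2) or hold the only CAGAC match (Twist1), with the matched letters in capitals. The Snai1 window (chr2:167537945-167538194, plus strand) held a CAGGTG E-box whose first base lay 126 bases before the start. The Twist1 window (chr12:33957421-33957670, plus strand) held CAGAC 9 bases before the start. The Zeb2 window of the start at the lowest coordinate (chr2:45110278-45110527, minus strand) held TGANTCA at 189 and at 132 bases before the start.
Snai1: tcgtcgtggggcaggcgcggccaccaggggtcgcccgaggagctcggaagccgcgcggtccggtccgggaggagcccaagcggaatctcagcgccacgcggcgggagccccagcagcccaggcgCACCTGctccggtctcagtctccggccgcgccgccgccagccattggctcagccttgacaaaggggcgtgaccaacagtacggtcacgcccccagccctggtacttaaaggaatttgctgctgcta
Twist1: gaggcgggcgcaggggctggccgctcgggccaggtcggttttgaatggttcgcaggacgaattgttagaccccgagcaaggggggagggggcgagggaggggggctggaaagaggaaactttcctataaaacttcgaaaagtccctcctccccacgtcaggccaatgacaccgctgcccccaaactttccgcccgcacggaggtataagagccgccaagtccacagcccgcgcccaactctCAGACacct
Zeb2: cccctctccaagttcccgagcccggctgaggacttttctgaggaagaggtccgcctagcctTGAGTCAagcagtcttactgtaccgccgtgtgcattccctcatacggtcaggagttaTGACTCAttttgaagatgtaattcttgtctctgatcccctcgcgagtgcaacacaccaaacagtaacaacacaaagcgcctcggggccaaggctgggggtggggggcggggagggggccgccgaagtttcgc
The windows of Twist2, Vim and the other 3 Zeb2 starts held none of the 4 motifs. A match says only that the letters are there.

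**Figure D1:**
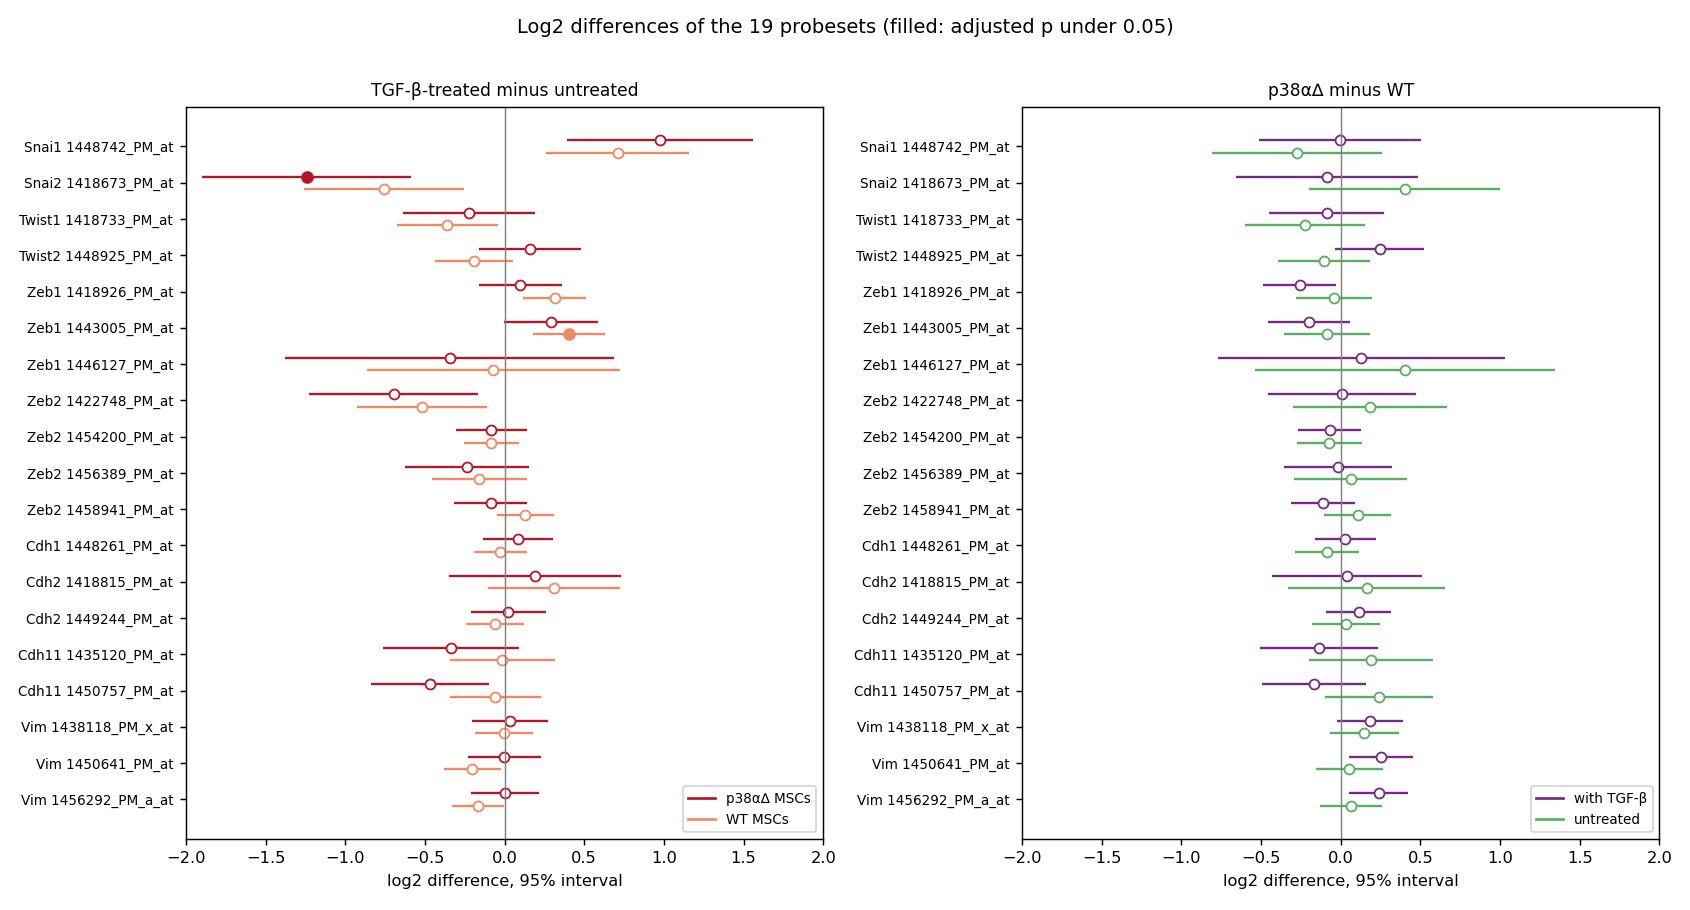
Log2 differences of the 19 probesets (horizontal axis) with 95% confidence intervals from the limma fit. On the left is the TGF-β response in p38α∆ MSCs (dark red) and WT MSCs (orange), on the right p38α∆ minus WT with TGF-β (purple) and without it (green). Filled points have an adjusted p under 0.05: only Snai2 in p38α∆ MSCs and Zeb1 1443005_PM_at in WT MSCs are filled, and Snai1 and Snai2 lie on opposite sides of 0 in both genotypes.

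The Snail genes answered TGF-β in opposite directions: averaged over both genotypes, Snai1 rose 1.79-fold and Snai2 fell to 0.50-fold. The direction was the same in each genotype, and no other member differed as much. In bulk RNA, fewer cells with a transcript and less transcript per cell cannot be told apart. Taken per genotype, few probesets passed the limma test with Benjamini-Hochberg adjustment over all 45037 probesets. In p38α∆ MSCs 1 of 19 probesets passed (Snai2, lower), where 5.21% of all probesets passed. In WT MSCs 1 of 19 passed (Zeb1 1443005_PM_at, higher), where 6% of all probesets passed. Both shares are near their background. The median difference of the 19 probesets was -0.002 in p38α∆ MSCs and -0.06 in WT MSCs, against -0.005 and 0.0001 over all probesets. With the responses of p38α∆ and WT MSCs averaged in the same fit, a contrast added after the data had been seen, 4 of 19 probesets passed, where 11.8% of all did: Snai1 and Zeb1 1443005_PM_at higher, Snai2 and Zeb2 1422748_PM_at lower.

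Snai1, a zinc finger repressor that acts early in the transition, had 1 probeset (1448742_PM_at). In p38α∆ MSCs it was at 8.51, 8.61 and 8.98 with TGF-β, against 8.12 and 7.38 untreated. WT MSCs had 8.86, 8.58 and 8.63 with TGF-β, against 8.47, 8.09, 7.80 and 7.48 untreated. All treated arrays lay above all untreated arrays of their genotype, a separation shown by 20% of all probesets in p38α∆ MSCs and 11% in WT MSCs. The response was 0.98 (SE 0.27, 1.97-fold) in p38α∆ MSCs, with an adjusted p of 0.0602 in limma, and 0.71 (SE 0.20, 1.63-fold) in WT MSCs, with an adjusted p of 0.0709. Neither passed. The average of both responses did, at 0.84 (SE 0.16, limma adjusted p = 0.00558), and it passed under each of 22 alternative settings, with adjusted p-values from 0.00217 to 0.0380. The untreated arrays spread more widely (SD 0.52 in p38α∆ and 0.42 in WT MSCs) than the treated ones (SD 0.25 in p38α∆ and 0.15 in WT MSCs).

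Snai2, which encodes the related repressor Slug, also had 1 probeset (1418673_PM_at). In p38α∆ MSCs it was at 4.82, 6.14 and 6.05 with TGF-β, against 6.16 and 7.45 untreated. The WT arrays were at 5.25, 6.20 and 5.88 with TGF-β, against 5.78, 6.76, 6.87 and 6.97 untreated. The groups did not overlap in p38α∆ MSCs, although their nearest arrays almost touched, and did overlap in WT MSCs, where the untreated array numbered 1 lay among the treated arrays. In p38α∆ MSCs 20% of all probesets separated the groups. Snai2 fell by 1.24 (SE 0.30) on the log2 scale in p38α∆ MSCs, to 0.42-fold, with a limma adjusted p of 0.0344. This call was lost when any 1 of 8 arrays was left out (WT + TGF-β 1 and 3, p38α∆ 1 and 3, p38α∆ + TGF-β 1, and WT 3, 4 and 4b), with adjusted p-values from 0.0526 to 0.245 in the same limma fit. It was lost as well without the replicate block (limma adjusted p = 0.485), with array quality weights (0.0754) and with the WT arrays 4 and 4b averaged (0.0520). In WT MSCs the difference was -0.76 (SE 0.23, 0.59-fold) with an adjusted p of 0.0876 in limma, which did not pass. The averaged response was -0.999 (SE 0.185, limma adjusted p = 0.00399). It passed in 21 of 22 alternative settings and not without the replicate block, where its limma adjusted p was 0.152.

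**Figure D2:**
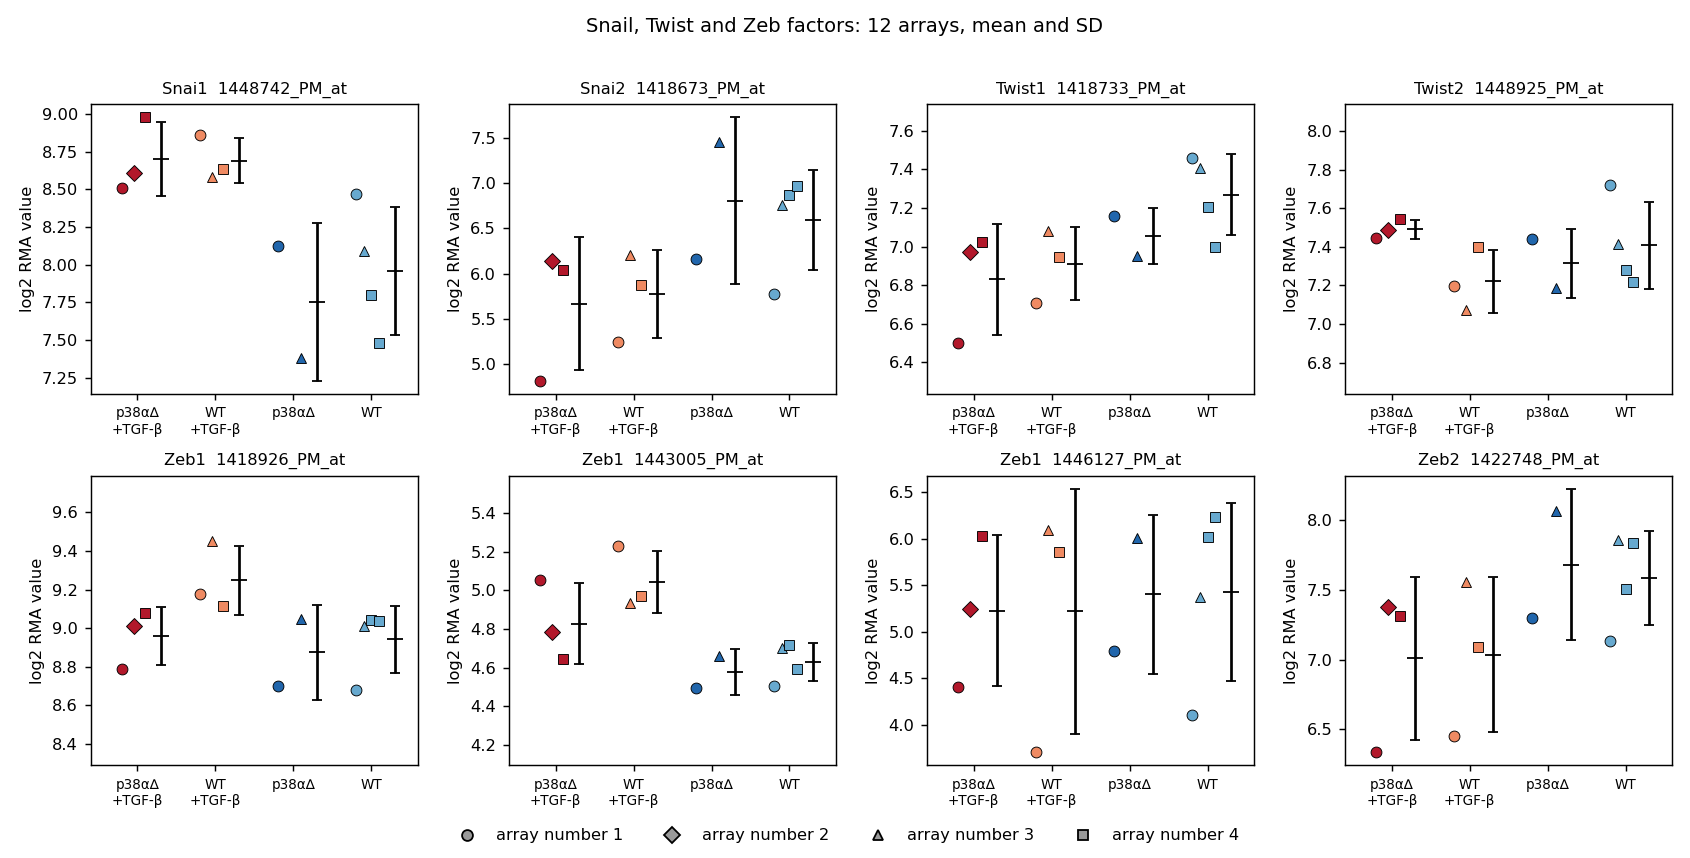
Log2 RMA values (vertical axes, each panel spanning at least 1.5 units) of Snai1, Snai2, Twist1, Twist2, the 3 Zeb1 probesets and Zeb2 1422748_PM_at on the 12 arrays. Symbols give the array number (WT 4 and 4b share the square) and bars the mean and SD of each group. Snai1 is higher and Snai2 lower in both TGF-β groups, and the circles (arrays numbered 1) lie at the bottom of every group for Snai2, Zeb1 1446127_PM_at and Zeb2.

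Twist1 and Twist2, close relatives that keep mesenchymal progenitors from differentiating, gave no call. Twist1 (1418733_PM_at) was at 6.50, 6.97 and 7.02 in p38α∆ MSCs with TGF-β, against 7.16 and 6.95 untreated. In WT MSCs it was at 6.71, 7.08 and 6.94 with TGF-β, against 7.46, 7.41, 7.20 and 7.0 untreated. The differences were -0.22 (SE 0.19, limma adjusted p = 0.639) in p38α∆ MSCs and -0.36 (SE 0.14, limma adjusted p = 0.217) in WT MSCs. Twist2 (1448925_PM_at) was at 7.44, 7.49 and 7.54 in p38α∆ MSCs with TGF-β, against 7.44 and 7.19 untreated. Its treated p38α∆ arrays all lay above the untreated ones, but the nearest pair almost touched, and 20% of all probesets separated these groups. WT MSCs had 7.20, 7.07 and 7.40 with TGF-β, against 7.72, 7.41, 7.28 and 7.22 untreated. The Twist2 response was 0.16 (SE 0.15) in p38α∆ MSCs and -0.19 (SE 0.11) in WT MSCs, with limma adjusted p-values of 0.675 and 0.450.

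The Zeb genes encode zinc finger and homeodomain repressors, and their probesets did not move as 1 gene. Zeb1 1418926_PM_at, which stands for the RefSeq transcript, was at 8.79, 9.01 and 9.08 in p38α∆ MSCs with TGF-β, against 8.70 and 9.05 untreated. The WT arrays were at 9.18, 9.45 and 9.12 with TGF-β, against 8.68, 9.01, 9.04 and 9.04 untreated. The WT groups did not overlap, as was so for 11% of all probesets. The WT difference of 0.31 (SE 0.09, limma adjusted p = 0.0723) did not pass, and that in p38α∆ MSCs was 0.10 (SE 0.12, limma adjusted p = 0.765). Zeb1 1443005_PM_at, from an expressed sequence tag and near the middle of all levels, was at 5.05, 4.78 and 4.65 in p38α∆ MSCs with TGF-β, against 4.49 and 4.66 untreated. In WT MSCs it was at 5.23, 4.94 and 4.97 with TGF-β, against 4.50, 4.70, 4.72 and 4.59 untreated. All 3 treated WT arrays lay above the 4 untreated ones, again a separation shown by 11% of all probesets. It rose by 0.40 (SE 0.10, 1.32-fold, limma adjusted p = 0.0420) in WT MSCs and differed by 0.29 (SE 0.14, limma adjusted p = 0.317) in p38α∆ MSCs. The WT call was lost when any 1 of 7 arrays was left out (WT 1, 3 and 4b, WT + TGF-β 1, 3 and 4, and p38α∆ + TGF-β 2), with limma adjusted p-values from 0.0534 to 0.212, and without the replicate block (0.118), with a fixed one (0.0789) and under 5 other settings (0.0592 to 0.160). The call of the averaged response, 0.35 (limma adjusted p = 0.0183), was lost without p38α∆ 1 (adjusted p = 0.149) or p38α∆ + TGF-β 1 (0.0599), without the replicate block (0.0572) and with array quality weights (0.0719). Without all 4 arrays numbered 1 the averaged response was 0.17 (0.156). Zeb1 1446127_PM_at, also from an expressed sequence tag, ranged from 3.70 to 6.23 over the arrays, and its responses were -0.34 (SE 0.47) in p38α∆ MSCs and -0.07 (SE 0.36) in WT MSCs. Over the 12 arrays the 3 Zeb1 probesets correlated at 0.49, 0.50 and -0.30 (Pearson's r, over arrays that share groups and numbers).

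Zeb2 1422748_PM_at was the only Zeb2 probeset above the median level of all probesets. It was at 6.34, 7.38 and 7.31 in p38α∆ MSCs with TGF-β, against 7.30 and 8.06 untreated. WT MSCs had 6.46, 7.56 and 7.09 with TGF-β, against 7.14, 7.85, 7.51 and 7.83 untreated. The groups overlapped in both genotypes. The differences were -0.70 (SE 0.24, limma adjusted p = 0.151) in p38α∆ MSCs and -0.52 (SE 0.19, limma adjusted p = 0.158) in WT MSCs. With array number as a fixed term, both passed, at -0.74 (limma adjusted p = 0.0326) and -0.51 (0.0317). Zeb2 thus lay on the side of Snai2, and its averaged response fell by 0.61 (SE 0.15, limma adjusted p = 0.0210). That call was lost without WT + TGF-β 1, p38α∆ 1, p38α∆ + TGF-β 1 or p38α∆ 3, with limma adjusted p-values from 0.0585 to 0.0873, and also without the replicate block (0.285) and with array quality weights (0.0597). The other 3 Zeb2 probesets, 1454200_PM_at, 1456389_PM_at and 1458941_PM_at, had mean levels of 3.02, 3.73 and 3.31, and none passed in any comparison with all arrays.

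Cdh1, the epithelial cadherin that Snail and Zeb repress, lay between 2.86 and 3.19 on all 12 arrays, near the floor of the platform (lowest value 2.28). Its TGF-β responses were 0.09 (SE 0.10) in p38α∆ MSCs and -0.03 (SE 0.08) in WT MSCs, with limma adjusted p-values of 0.756 and 0.912. At so low a signal a further fall of Cdh1 could not have been seen. Cdh2, the cadherin of neural and mesenchymal cells, had 2 probesets, annotated to the same sequence record. Cdh2 1449244_PM_at was at 8.14, 8.50 and 8.39 in p38α∆ MSCs with TGF-β, against 8.13 and 8.53 untreated, and in WT MSCs it ran from 8.17 to 8.36 with TGF-β, against 8.18 to 8.40 untreated. Its 2 responses were 0.02 (SE 0.11) in p38α∆ MSCs and -0.06 (SE 0.08) in WT MSCs. Cdh2 1418815_PM_at differed by 0.19 (SE 0.25) in p38α∆ MSCs and 0.31 (SE 0.19) in WT MSCs. No Cdh2 difference passed.

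Cdh11, a cadherin of osteoblasts and mesenchymal cells, gave the widest TGF-β difference among the member cadherins in p38α∆ MSCs. Cdh11 1450757_PM_at was at 8.03, 8.55 and 8.34 in p38α∆ MSCs with TGF-β, against 8.42 and 9.11 untreated. The WT arrays were at 8.38, 8.70 and 8.39 with TGF-β, against 8.11, 8.71, 8.72 and 8.71 untreated. The difference was -0.47 (SE 0.17, limma adjusted p = 0.173) in p38α∆ MSCs and -0.06 (SE 0.13, limma adjusted p = 0.886) in WT MSCs, and the difference of these responses was -0.41 (SE 0.22, limma adjusted p = 0.945). Without the 4 arrays numbered 1 the p38α∆ difference was -0.64 and passed (limma adjusted p = 0.0441). The other probeset, 1435120_PM_at, followed the first over the arrays (r = 0.92, n = 12) and gave -0.34 (SE 0.20) in p38α∆ MSCs and -0.01 (SE 0.15) in WT MSCs.

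**Figure D3:**
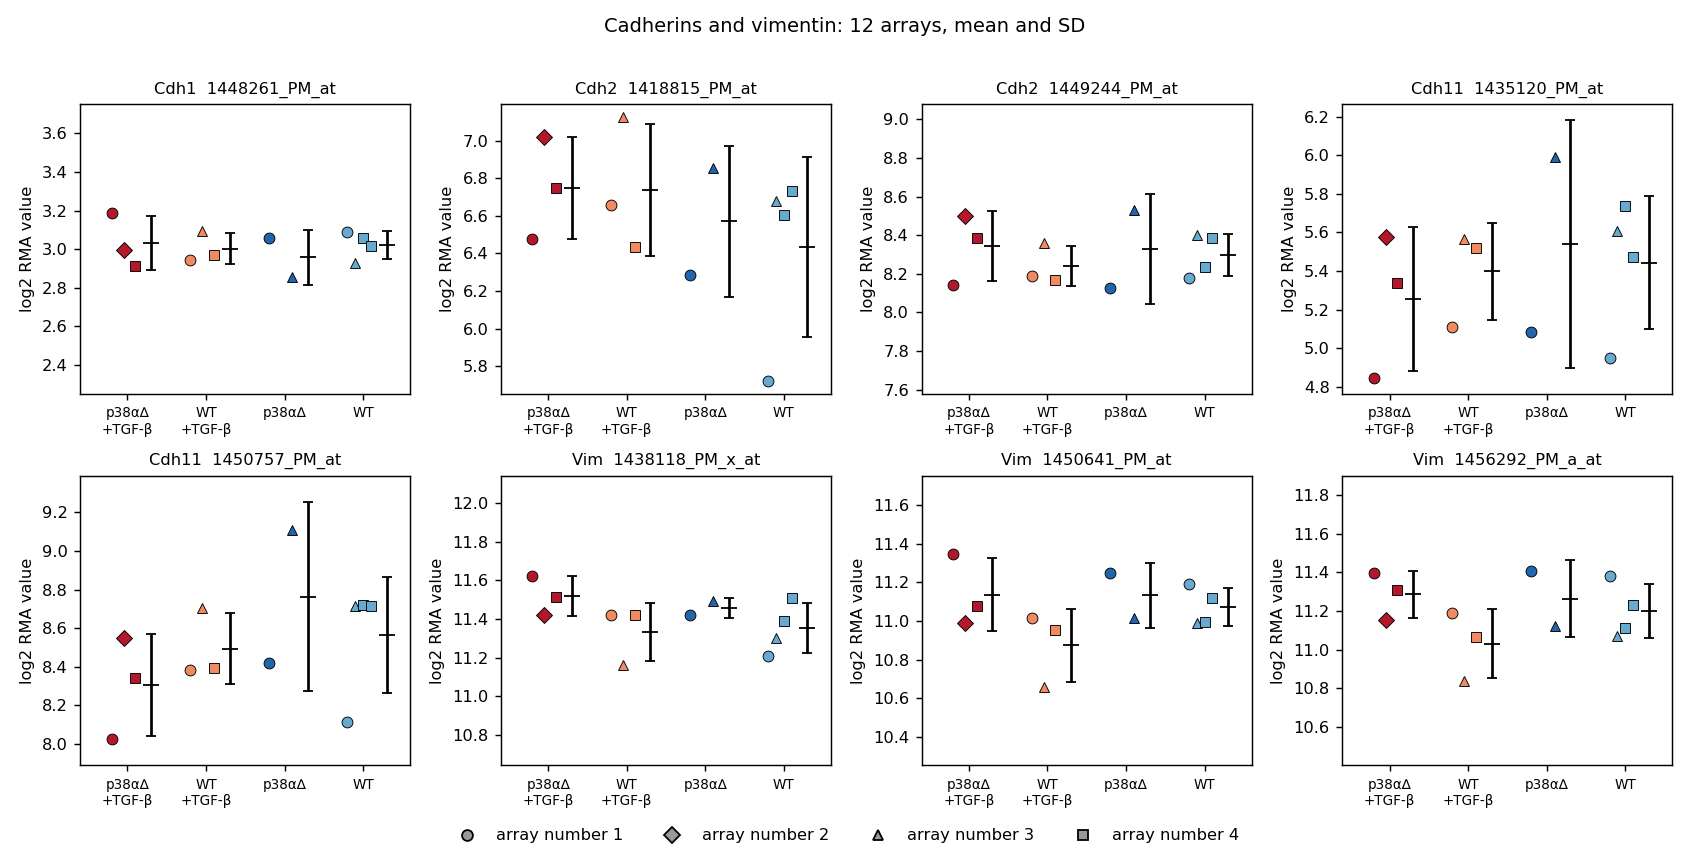
Log2 RMA values (vertical axes, each panel spanning at least 1.5 units) of Cdh1, Cdh2, Cdh11 and Vim on the 12 arrays, with the mean and SD of each group. Symbols give the array number. Cdh1 stays near 3 everywhere, both Cdh11 probesets are lowest within each group on the array numbered 1, and the Vim groups lie within 1 unit of each other.

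Vim, the main intermediate filament of mesenchymal cells, gave among the highest signals on the array and gave no call with TGF-β. Vim 1456292_PM_a_at was at 11.40, 11.15 and 11.31 in p38α∆ MSCs with TGF-β, against 11.41 and 11.12 untreated. In WT MSCs it was at 11.19, 10.84 and 11.07 with TGF-β, against 11.38, 11.07, 11.11 and 11.23 untreated. The 3 Vim probesets differed by 0.03, -0.002 and 0.004 with TGF-β in p38α∆ MSCs, and by -0.005, -0.20 and -0.17 in WT MSCs, and none passed. The first, 1438118_PM_x_at, is of a class whose probes can bind other transcripts as well.

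Between genotypes no member passed the test. With TGF-β, 0 of 19 probesets passed (limma, p38α∆ against WT), where 0.187% of all probesets did, and 3 had an unadjusted p under 0.05, as 7.06% of all did. Those 3 were Vim 1450641_PM_at and 1456292_PM_a_at, at 0.25 (SE 0.09) and 0.24 (SE 0.09), and Zeb1 1418926_PM_at, at -0.26 (SE 0.10), with limma adjusted p-values of 0.521, 0.516 and 0.614. Twist2 and Zeb1 1418926_PM_at separated the treated arrays by genotype, a pattern shown by 7.77% of all probesets. Twist2 was at 7.44, 7.49 and 7.54 in p38α∆ MSCs with TGF-β, against 7.20, 7.07 and 7.40 in WT MSCs with TGF-β. Zeb1 1418926_PM_at was at 8.79, 9.01 and 9.08 in p38α∆ MSCs, against 9.18, 9.45 and 9.12 in WT MSCs. Their differences of 0.24 (SE 0.13) for Twist2 and -0.26 for Zeb1 did not pass.

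Without TGF-β, 0 of 19 probesets passed in limma, as did 0% of all probesets, and none of the 19 had an unadjusted p under 0.05, against 4.55% of all. No member separated the untreated genotypes, which 7.01% of all probesets did. Snai2 differed by 0.40 (SE 0.27, 95% interval -0.20 to 1.00) and Snai1 by -0.27 (SE 0.24, interval -0.81 to 0.26), so differences up to about the size of the TGF-β responses remain within the intervals. With TGF-β the interval ran from -0.52 to 0.50 for Snai1 and from -0.66 to 0.49 for Snai2. Averaged over both treatments, again a contrast added later, the 3 Vim probesets were 0.15 to 0.17 higher in p38α∆ than in WT MSCs, with unadjusted p-values from 0.0286 to 0.0369 and limma adjusted p-values from 0.666 to 0.726. None of the 19 passed, where 0.138% of all did and 6.43% had an unadjusted p under 0.05.

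The test of the difference between the TGF-β responses of p38α∆ and WT MSCs also called 0 of 19 probesets, where 0.00666% of all passed, and none had an unadjusted p under 0.05 in limma, against 4.94% of all. The largest difference was that of Snai2, at -0.49 (SE 0.38, interval -1.33 to 0.36). That of Cdh11 1450757_PM_at, given above, was second in size. Snai1 differed by 0.27 (SE 0.34, interval -0.48 to 1.02) and Twist2 by 0.35 (SE 0.19, interval -0.06 to 0.76). These intervals include both no difference and differences of about 1 log2 unit for the Snail genes.

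The arrays numbered 1 stood apart for several members, in the same direction in every group. They also stood apart over the whole series (principal component 1, 50.6% of the variance). The share of all probesets with the pattern below was not counted, so it is not a trait of these members. Snai2, Zeb1 1446127_PM_at, Zeb2 1422748_PM_at and 1456389_PM_at and both Cdh11 probesets had their lowest value on the array numbered 1 in all 4 groups, and Vim 1450641_PM_at and 1456292_PM_a_at their highest. Averaged over the groups, the array numbered 1 differed from the others by -1.11 for Snai2, by -1.62 for Zeb1 1446127_PM_at and by -0.81 for Zeb2 1422748_PM_at. For Snai2 this is as large as the TGF-β response. Snai1 did not share the pattern, its array numbered 1 being lowest in 1 group and highest in 3. The labels do not say what the numbers stand for, and their part in the levels was not tested further.

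**Figure D4:**
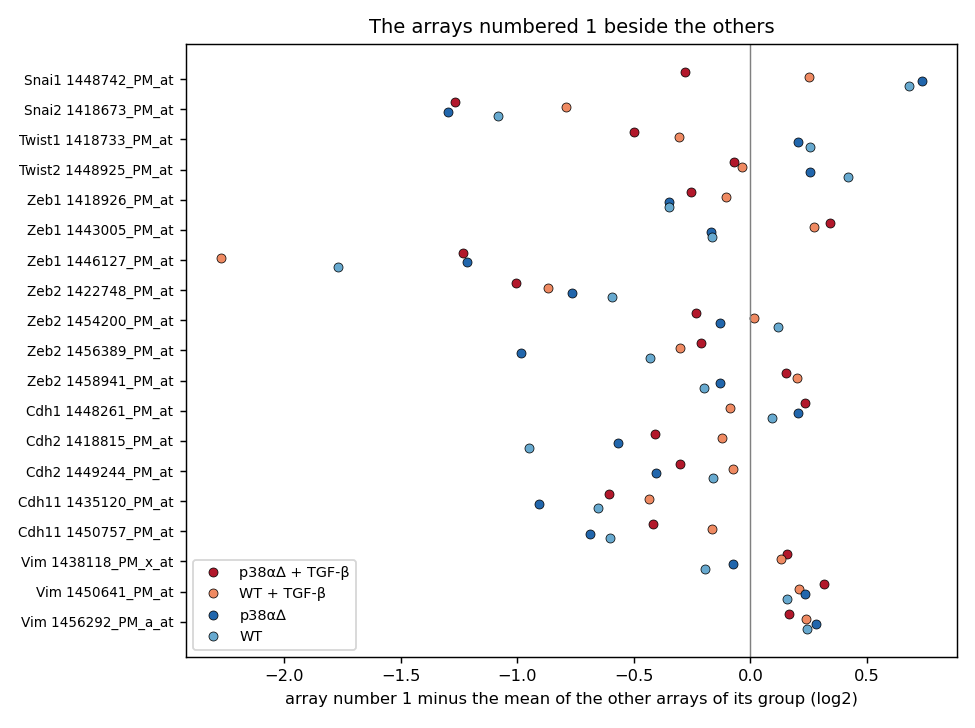
For each of the 19 probesets, the log2 value of the array numbered 1 minus the mean of the other arrays of its group (horizontal axis), 1 point per group. All 4 points of Snai2, Zeb1 1446127_PM_at and 1418926_PM_at, Zeb2 1422748_PM_at and 1456389_PM_at, and both probesets of Cdh2 and of Cdh11 lie left of 0. Those of Vim 1450641_PM_at and 1456292_PM_a_at lie right of it.

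Arrays of the same number were therefore compared. In p38α∆ MSCs the only such pair (number 1) gave a TGF-β response of 0.39 for Snai1, -1.34 for Snai2, -0.96 for Zeb2 1422748_PM_at and -0.66 for Twist1. In WT MSCs Snai1 responded by 0.39, 0.49, 0.83 and 1.15 in the pairs numbered 1, 3 and 4 and for the same treated array 4 against 4b. Snai2 responded there by -0.53, -0.56, -0.99 and -1.09, and Zeb2 by -0.68, -0.30, -0.42 and -0.74. All 4 pairs, and the comparison with 4b, which shares its treated array with the pair numbered 4, gave Snai1 higher, and Snai2, Zeb2 1422748_PM_at and Twist1 lower, with TGF-β. Zeb1 1418926_PM_at and 1443005_PM_at were also higher in all of them, and Zeb2 1454200_PM_at and Vim 1456292_PM_a_at lower, some by very little. The share of all probesets with such a common sign was not counted, so it is not a trait of these members. Between genotypes with TGF-β, the pairs numbered 1 and 4 gave differences of -0.35 and 0.35 for Snai1 and of -0.43 and 0.17 for Snai2, without a common sign. Without TGF-β, the pairs numbered 1 and 3 gave -0.35 and -0.71 for Snai1, and 0.38 and 0.69 for Snai2, the same sign in both. The 4 arrays numbered 1 left out, TGF-β gave calls for Snai1 and Snai2 in both genotypes: 1.45 and -1.35 in p38α∆ MSCs (limma adjusted p = 0.0168 and 0.00404), and 0.81 and -0.83 in WT MSCs (0.0425 and 0.00666). In that fit a single untreated p38α∆ array remains, and it is assumed to vary like the other groups.

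**Figure D5:**
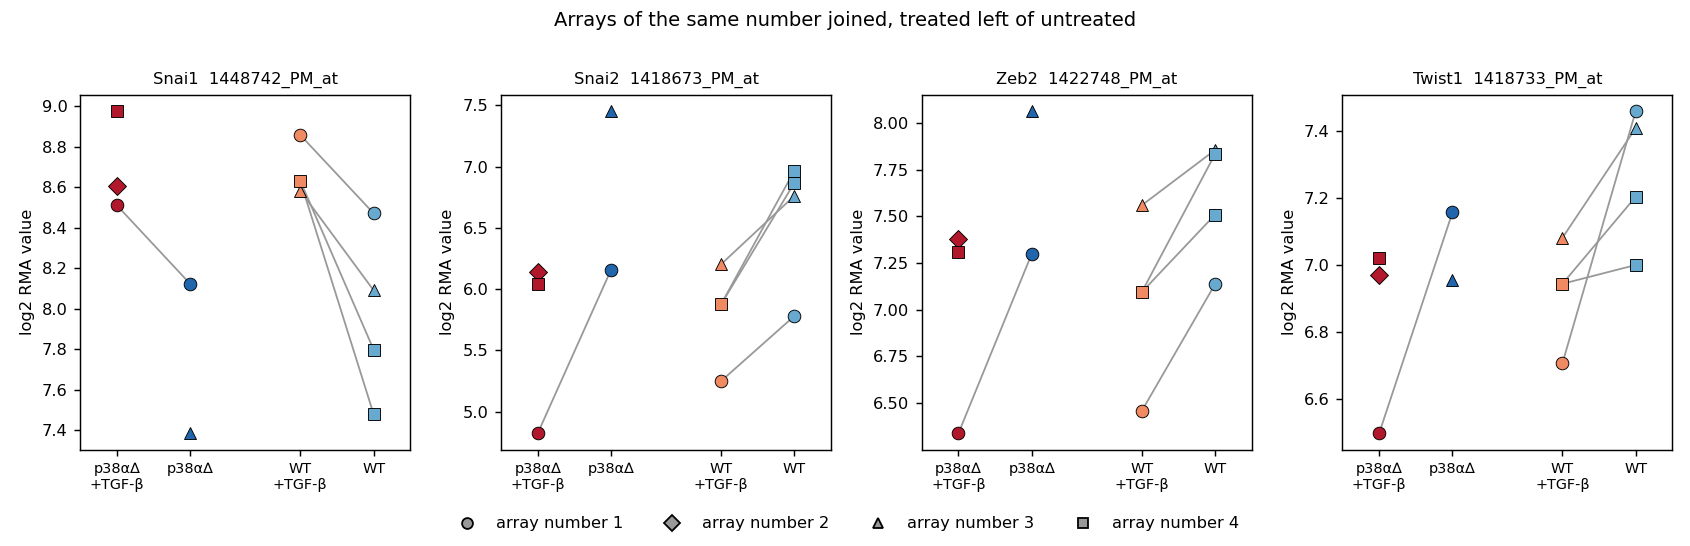
Log2 RMA values (vertical axes) of Snai1, Snai2, Zeb2 1422748_PM_at and Twist1, with the TGF-β-treated arrays left of the untreated ones in p38α∆ and in WT MSCs and lines joining arrays of the same number. Every line falls to the right for Snai1 and rises to the right for Snai2, Zeb2 and Twist1.

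The genes around these factors were listed by role, each gene by its probeset of highest median absolute deviation. Of 17 dimer partners, co-repressors and ubiquitin ligases of Snail, Twist and Zeb, 1 rose and 1 fell with TGF-β in each genotype, where 7.09% of all genes passed in p38α∆ MSCs and 8.29% in WT MSCs. Ajuba, a LIM protein that Snail recruits, rose in both (0.67 in p38α∆ and 0.92 in WT MSCs). The gene that fell was Btrc, a ligase that marks Snail for breakdown, in p38α∆ MSCs (-0.35), and Sin3a, a co-repressor, in WT MSCs (-0.53). The fall of Btrc rests on 1 of its 5 probesets, since the other 4 differed by 0.20, -0.13, -0.12 and 0.09 and did not pass. The other 3 Sin3a probesets differed by -0.48, -0.44 and -0.32 in WT MSCs, of which the last 2 passed. By the listed probeset, Btrc differed by -0.18 in WT MSCs (limma adjusted p = 0.113) and Sin3a by -0.44 in p38α∆ MSCs (0.206), and neither passed. The median of the list was -0.05 in both genotypes, against -0.004 in p38α∆ and -0.006 in WT MSCs over all genes.

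Of 14 measured other factors of the mesenchymal state, 3 rose and 0 fell in p38α∆ MSCs, where 7.09% of all genes passed. In WT MSCs, where 8.29% of all genes passed, 4 rose and 1 fell. With the 2 responses averaged, 5 rose and 3 fell, where 15.3% of all genes passed. Those that fell were Prrx1 (-0.83), Sox4 (-0.65) and Prrx2 (-0.39), and each of the 5 Prrx1 probesets passed as lower. Sox4 was named after its value was seen, and its other probesets are not given. Foxq1, a forkhead factor, rose by 2.03 (SE 0.16) in p38α∆ MSCs and 1.66 (SE 0.12) in WT MSCs by 1 of its 2 probesets. The other differed by 0.82 in p38α∆ MSCs (limma adjusted p = 0.0715) and by 0.67 in WT MSCs (0.0521) and did not pass. Sox9, the chondrogenic factor, rose by 0.98 and 0.59, and Hmga2, a chromatin protein that acts with Smads on Snai1, by 0.76 and 0.50. Tbx18, a T-box factor of mural cells, rose by 0.75 in WT MSCs, where the gene that fell was Prrx2, a homeobox factor (-0.42), named after its value was seen. In p38α∆ MSCs Tbx18 differed by 0.72 (limma adjusted p = 0.136) and Prrx2 by -0.35 (0.0632), and neither passed. None of 10 epithelial factors such as the Ovol and Grhl genes passed, and 8 of them lay below the median level of all probesets.

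Among the cadherins other than the members, Cdh26 alone of 16 measured passed, and it fell by 0.77 in p38α∆ and by 0.62 in WT MSCs, at a low level (mean 3.83). Of 12 catenins and linkers, 1 rose and 2 fell in each genotype. Beside the counts of these lists, 7.09% of all genes passed in p38α∆ MSCs and 8.29% in WT MSCs. Pkp4, a plakophilin of the p120 family, rose by 0.76 in p38α∆ and 0.64 in WT MSCs. Ctnnal1, an α-catenin-like protein, fell by 0.77 and by 0.50, and Arvcf, a p120 relative, by 0.49 and by 0.45. Of 10 intermediate filament genes, Nes (nestin) rose by 1.89 (SE 0.32) in p38α∆ MSCs and Synm (synemin), a partner of vimentin in filaments, fell by 0.94 (SE 0.16) in WT MSCs. Nes differed by 0.53 in WT MSCs (limma adjusted p = 0.302) and Synm by -0.68 in p38α∆ MSCs (0.0946), and neither passed. The other Ctnnal1 probeset (-0.73 in p38α∆ and -0.53 in WT MSCs), both other Arvcf probesets (-0.37 and -0.07 in p38α∆ MSCs, -0.46 and -0.11 in WT MSCs) and the other Synm probeset (-0.42 in WT MSCs) did not pass. None of these was tested as different between genotypes except through the fit of all probesets, in which no gene of these lists passed for the difference of the responses.

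The TGF-β treatment itself was seen in direct targets, of which 5 of 12 measured rose and 2 fell in p38α∆ MSCs, and 3 rose and 2 fell in WT MSCs. Beside these and the counts below, 7.09% of all genes passed in p38α∆ MSCs and 8.29% in WT MSCs. Skil, which encodes the Smad inhibitor SnoN, rose by 2.56 in p38α∆ and 2.53 in WT MSCs, and the inhibitory Smad7 by 1.68 and 1.22. The others that rose, named after their values were seen, were Ski, a relative of SnoN (0.74 in p38α∆ and 0.71 in WT MSCs), and in p38α∆ MSCs also Bambi, a pseudoreceptor (0.50), and Smurf1, a ubiquitin ligase (0.60). In WT MSCs Bambi differed by 0.11 (limma adjusted p = 0.649) and Smurf1 by 0.20 (0.167), and neither passed. Id2 and Id3, inhibitors of basic helix-loop-helix factors that share E proteins with Twist, fell by 1.64 and by 1.33 in p38α∆ MSCs, and by 1.27 and by 1.31 in WT MSCs. Of 13 matrix and cytoskeleton genes of the mesenchymal state, 2 rose and 1 fell in p38α∆ MSCs, and 3 rose and 1 fell in WT MSCs. Tnc (tenascin C) rose by 0.68 and 0.87 and Col5a1 by 0.32 and 0.48, while S100a4 (FSP1), often used to mark fibroblasts, fell by 1.10 in p38α∆ and by 0.77 in WT MSCs. Lox, a collagen cross-linking enzyme, rose by 0.54 in WT MSCs. Among 13 epithelial markers Krt19 alone passed, falling by 0.65 in WT MSCs. In p38α∆ MSCs Lox differed by 0.37 (limma adjusted p = 0.103) and Krt19 by -0.19 (0.744), and neither passed. Of 8 MSC markers, Cd44 rose by 0.88 in p38α∆ and 0.71 in WT MSCs, Mcam (CD146) rose by 1.04 and Pdgfra fell by 0.77 in p38α∆ MSCs, and Nt5e rose by 0.49 in WT MSCs. Mcam differed by 0.07 (limma adjusted p = 0.821) and Pdgfra by -0.21 (0.514) in WT MSCs, and Nt5e by 0.41 (0.145) in p38α∆ MSCs. None of these 3 passed. Of these genes and the factors above with several probesets, at least 1 other probeset passed in the same direction for Sox9, Hmga2, Tnc, Col5a1, Cd44 and Id2 in both genotypes and for Lox and Tbx18 in WT MSCs, and none for Nt5e. The other probeset of Ski and that of Smurf1 are not given. Between genotypes with TGF-β, where 0.222% of all genes passed, Mcam was the only gene of all these lists to do so, 1.14 (SE 0.12) higher in p38α∆ MSCs (limma adjusted p = 0.00435).

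The genes whose values most resembled a member's were sought for the 3 members with the widest range of group means, among all genes and over the 12 arrays. For Snai2 they were Prkar2b (r = 0.99), Ypel2 (0.98) and Eya4 (0.98), with r of 0.98, 0.99 and 0.96 over the 8 arrays not numbered 1. For Snai1 they were Rrp1b (0.97), Notch2 (0.97) and Efna1 (0.97), with 0.99, 0.98 and 0.98 over those 8 arrays. For Zeb2 they were Armc10 (0.98), Septin11 (0.98) and Fam32a (0.97), with 0.96, 0.91 and 0.93. These were picked as the closest of 17097 genes over 12 arrays that share groups and numbers, so they are given as a description.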

How the data were processed

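Total RNA was amplified as cDNA by whole transcriptome amplification and hybridised to Affymetrix MG-430 PM arrays, 1 per sample. The authors normalised the arrays by RMA and deposited log2 values for 45101 probesets, and 64 control probesets were left out. Of 45037 tested, 28898 have 1 symbol in the platform annotation, 551 several and 15588 none.

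All 12 arrays entered 1 limma fit (limma 3.58.1, statmod 1.5.0, R 4.3.3) of 4 group means, with array number as a random block (consensus correlation 0.46) and Benjamini-Hochberg adjustment over 45037 probesets. An adjusted p under 0.05 passed. The number comes from the array titles, 4b counting as 4. Residuals of same-numbered arrays of different groups correlated at 0.11 to 0.84 in 14 of 14 pairs, so the numbers were taken to pair the arrays. Of 39 differently numbered pairs, 12 were also over 0.1 (up to 0.736), and without the 4 arrays numbered 1 the consensus correlation was 0.115. The rule for named genes took every member probeset; of each further list, at most 4 passing genes of largest difference per comparison, by the probeset of highest median absolute deviation; and cell type markers whatever their values. Ski, Bambi, Smurf1, Prrx2 and Sox4 were named outside it, after their values were seen. Members and lists were chosen with earlier results of these data known, and the 2 averaged contrasts were added after seeing them. The fit was run on simulated data whose planted changes were larger than any member difference here. That run does not show how well differences of these sizes are recovered. Alternatives changed the block, normalization, filter, variance model and arrays used. The number of arrays limits the precision. One transgene that all the cells carry is not reported here.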

Additional observations from a re-analysis of the deposited data

Results flagged for a closer look

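Of the 4 untreated WT arrays, the one numbered 1 was set apart below the others, relative to their range, for 4 of the 19 probesets. The rule flags about 1 in 20 independent groups of 4 arrays by chance. That rate does not apply here, because all 19 groups are the same 4 arrays, and 4 and 4b count as the same number. The gap to the nearest array took 0.992 of the group's whole range for Cdh11 1450757_PM_at (8.11 against 8.71), 0.905 for Zeb1 1418926_PM_at (8.68 against 9.01), 0.896 for Zeb2 1458941_PM_at (3.11 against 3.30) and 0.877 for Cdh2 1418815_PM_at (5.72 against 6.61). All 4 were the lowest of the group.

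For Twist2, the plain means of the treated and untreated arrays differed by 0.18 in p38α∆ MSCs and by -0.19 in WT MSCs, opposite directions that lie 0.363 apart. The rule that picked it out is no test. In the limma fit the difference of the responses was 0.35, with an adjusted p of 0.945.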

How the results depend on the processing

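Of the 72 differences of single probesets, refitted under 23 settings, 1547 values stayed on their side of the threshold, 37 lost it and 22 gained it. Only differences called in the main fit could lose it, and these were few. The Zeb1 1443005_PM_at call in WT MSCs was lost under 14 settings and kept under 8. The Snai2 call in p38α∆ MSCs was lost under 11 and kept under 11. No called value changed sign, but 87 of the 1547, called in neither fit, did. With TGF-β, 1 member probeset passed in p38α∆ and 1 in WT MSCs. Without the replicate block 0 passed in either, and with number as a fixed replicate block 2 in each. In p38α∆ MSCs the count was 2 with 1 probeset per gene, 2 after quantile normalization, 2 among probesets above the median level, 2 with an intensity trend and robust variances, 3 without the 4 arrays numbered 1, and 0 with WT arrays 4 and 4b averaged or with array quality weights. In WT MSCs it was 2 with 1 probeset per gene, 4 above the median level, 2 without the arrays numbered 1, 2 with these 2 groups alone, and 0 after quantile normalization, with 4 and 4b averaged, with quality weights or with trend and robust variances. Leaving out 1 array gave 0 to 2 in each genotype. The averaged TGF-β response called 4 probesets, 1 without the replicate block, and 2 to 5 with 1 array left out (2 without p38α∆ 1 or p38α∆ + TGF-β 1). No comparison between genotypes called a member under any setting. Over all probesets, the calls without the block were 1058 in place of 2347 in p38α∆ MSCs and 994 in place of 2704 in WT MSCs. The fit of 2 groups alone was not run for TGF-β in p38α∆ MSCs, where the block correlation could not be estimated. The cause of these changes was not tested. The 2 untreated p38α∆ arrays and low signals such as that of Cdh1 limit what could be seen.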
